A study of Mus musculus with 2 samples.

Results

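Neurotrophic factors and their receptors were described in the bladder of newborn mice as a set of 8 genes: the ligands Bdnf, Ntf3, Gdnf, Nrtn and Artn, the receptors Ntrk2 and Ret, and the co-receptor Gfra1. The genes were chosen by name and found by identifier, 8 of the 43346 mouse genes in the gene tables. The bladders of 2 pups of strain B6NCrl, a C57BL/6-derived inbred strain, were taken whole on postnatal day 0, and their total RNA above a size of 200 nt was sequenced. Both pups came from 1 pregnant female, were untreated as far as the labels say, and were of a sex the labels do not give. They form a single group with 1 library for each animal, prepared from 10 ng of RNA, so no test between conditions was possible.

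Neurotrophins are secreted proteins, made as larger precursors, that keep neurons alive and guide the growth of their processes. They bind Trk receptors, which are tyrosine kinases, and the low-affinity receptor p75, the product of Ngfr. The GDNF family uses a different system in which each ligand first binds a GFR alpha co-receptor on the cell surface, and the complex then activates the kinase Ret. In the bladder these factors are known mainly for the nerve supply. Tissues reached by nerve fibres make ligands, and the cell bodies of the neurons that carry the receptors lie largely in ganglia outside the organ.

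Ntrk2 encodes TrkB, the receptor for the proteins made by Bdnf and Ntf5, and the main result on it concerned the form of its transcript. The deposited transcript tables hold estimates for 2 Ntrk2 transcripts. Ntrk2-201 encodes the full-length receptor with its kinase, and Ntrk2-202 encodes a truncated receptor with the same outer part and membrane anchor but no kinase. Both sequences below are shown because they mark the place where these forms part. They were read from the GENCODE M21 transcripts (mouse assembly GRCm38, the same as mm10), 5′ to 3′, and capitals mark the bases after the last shared coding base.

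Ntrk2-201: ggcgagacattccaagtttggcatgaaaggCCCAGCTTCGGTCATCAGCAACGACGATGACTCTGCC

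Ntrk2-202: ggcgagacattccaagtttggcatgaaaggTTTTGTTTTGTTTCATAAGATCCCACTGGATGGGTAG

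The forms share 1394 coding bases. Ntrk2-202 then reads 37 bases of its own and ends in a stop codon, within an exon on the plus strand of chromosome 13 from 58932023 to 58937027 (mm10). Ntrk2-201 goes on for 1072 bases, starting in an exon from 58985802 to 58985990. Only the first 37 of those bases are shown.

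The bladder expressed 4 of the 5 ligands above 1 TPM, a share of all transcripts that takes their lengths into account, together with Ntrk2 and Gfra1. Of the 8 genes, 6 reached 1 TPM in both pups, against 31.9% of all mouse genes and 58.5% of the 21474 protein-coding genes. Ret and Gdnf did not. In bulk tissue, fewer cells of a type and less RNA per cell cannot be told apart. Levels are given below per pup and as mean ± SD over 2 pups.

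**Figure D1:**
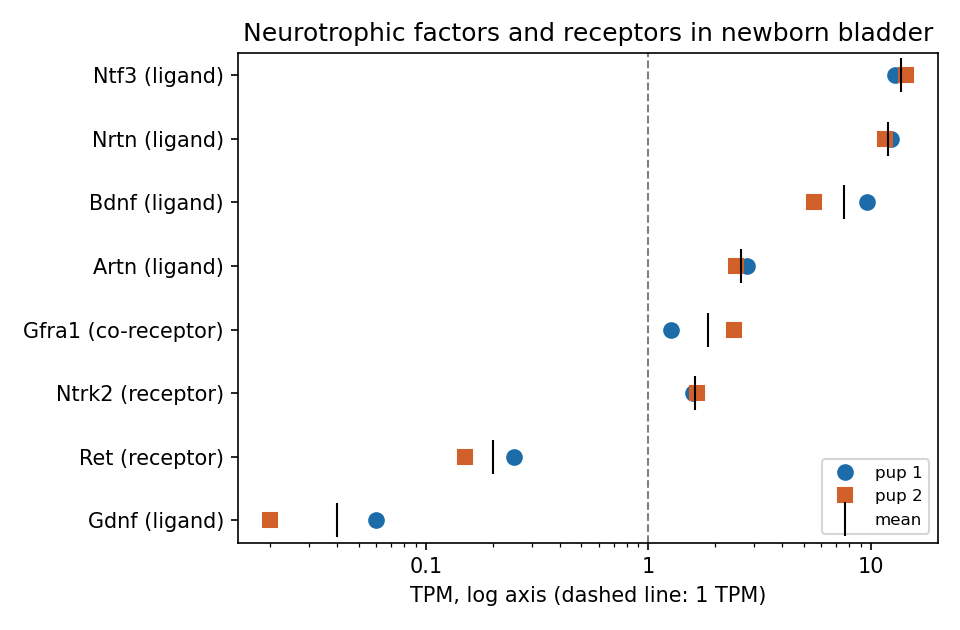
Level of each of the 8 genes in TPM on a log axis, with a circle for pup 1, a square for pup 2 and a bar for the mean. Ntf3 and Nrtn lie highest, near 13.6 and 12.0 TPM on average, and Ret and Gdnf lie left of the dashed line at 1 TPM in both pups.

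Ntf3 encodes neurotrophin-3, the main ligand of TrkC, and was the highest of the 8. It had 12.9 TPM in pup 1 and 14.4 TPM in pup 2 (13.6 ± 1.03 TPM, n = 2) on 503 and 442 expected counts. The pups differed little, and 69.9% of protein-coding genes had a lower mean level. The gene lies on the minus strand of chromosome 6 from 126101412 to 126166910.

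Ntf3 reads were divided between 2 transcripts whose proteins start at different codons. Ntf3-202, with 39 additional coding bases, took 76.8% of the TPM of the gene in pup 1 and 62.9% in pup 2, and Ntf3-201 took the rest. The 5′ ends of their coding sequences are shown next, with the additional bases in capitals.

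Ntf3-202: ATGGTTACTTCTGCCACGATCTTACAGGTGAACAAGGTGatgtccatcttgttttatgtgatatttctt

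Ntf3-201: atgtccatcttgttttatgtgatatttctt

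The start codon of Ntf3-202 lies in an exon of the minus strand from 126164730 to 126164840, and that of Ntf3-201 in the exon from 126101412 to 126102523. The larger share of Ntf3-202 held in both pups, but the posterior SD of its count in pup 1 was 42.9 reads on an estimate of 394. Only 111 bases of Ntf3-202 and 195 bases of Ntf3-201 lie outside the other by the GENCODE M21 exons, and the tables give both transcripts other lengths than M21 does.

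Bdnf encodes brain-derived neurotrophic factor, a ligand of TrkB, and was the third highest and the one with the clearest gap between the pups. It had 9.64 TPM in pup 1 and 5.53 TPM in pup 2 (7.59 ± 2.91 TPM, n = 2) on 1118 and 512 expected counts. Pup 1 was the higher. The gene lies on the plus strand of chromosome 2 from 109674700 to 109727007.

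Bdnf has several alternative first exons that are spliced to a common exon holding the coding sequence. Of its 11 estimated transcripts, Bdnf-205 took 96.2% of the TPM of the gene in pup 1 and 100% in pup 2. In pup 1 the other 3.80% went to Bdnf-209, on 42.4 expected counts, and 9 transcripts had 0 in both pups. The posterior mean estimates in the same tables, which spread reads over all candidates, put Bdnf-205 at 90.2% and 86.1%. All forms share the long last exon, and the choice of Bdnf-205 rested on the 347 bases found in no other estimated Bdnf transcript. The antisense gene Gm45346 covers 896 exonic bases of Bdnf, and, with the strand setting not given, its reads could not be separated from those of Bdnf there. No value for Gm45346 was used here.

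Among the GDNF family ligands, Nrtn was high, Artn was lower and Gdnf was close to 0. Nrtn encodes neurturin, a factor known for its part in parasympathetic innervation. It had 12.3 TPM in pup 1 and 11.6 TPM in pup 2 (12.0 ± 0.495 TPM, n = 2) on 341 and 257 counts, from a single transcript on the minus strand of chromosome 17 between 56751325 and 56757530. Its pups nearly coincided.

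Artn encodes artemin, known for sympathetic and sensory neurons. It had 2.77 TPM and 2.47 TPM (2.62 ± 0.212 TPM, n = 2) on 109 and 83 counts, and lies on the minus strand of chromosome 4 from 117926162 to 117929763. By level, 47.5% of protein-coding genes were below it, so it sat near the middle of the protein-coding genes. Its 2 coding transcripts took 65.4% and 71.6% of its TPM in pup 1 and pup 2, or 92.2% and 94.3% of its counts. The other TPM came from 2 short non-coding transcripts with 8.45 counts in pup 1 and 4.73 in pup 2.

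Gdnf encodes glial cell line-derived neurotrophic factor, the ligand that binds GFR alpha 1. It had 6 counts in pup 1 and 2 in pup 2, or 0.06 TPM and 0.02 TPM, on the plus strand of chromosome 15 from 7810846 to 7837575. Exact Poisson intervals at 95% ran from 2.20 to 13.1 counts in pup 1 and from 0.24 to 7.22 counts in pup 2. A gene with 0 counts could still have a level of up to 3 counts. That limit was 0.0294 TPM in pup 1 and 0.0368 TPM in pup 2. Gdnf was above the limit in pup 1 and below it in pup 2. An exact Poisson interval excludes 0 whenever the count is above 0, so the intervals are no evidence of expression in themselves. The level in pup 2 rests on 2 counts and was not fixed at this depth. Such intervals and limits hold for counting error alone, as copies made by PCR were counted as reads of their own.

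Ntrk2, Gfra1 and Ret were all below the 4 highest ligands in both pups. Ntrk2 had 1.59 TPM in pup 1 and 1.66 TPM in pup 2 (1.63 ± 0.0495 TPM, n = 2) on 333 and 279 counts. The pups were close, and 43.6% of protein-coding genes were lower.

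Nearly all of the Ntrk2 signal was the truncated form. Ntrk2-202 took 92.8% of the TPM of the gene in pup 1 and 92.8% in pup 2 (SD 0.0212 percentage points, n = 2), and Ntrk2-201 took 7.20% and 7.17%. As levels, the truncated form was at 1.47 TPM and 1.54 TPM and the full-length form at 0.11 TPM and 0.12 TPM. The truncated form thus had 13.4 times the TPM of the full-length form in pup 1 and 12.8 times in pup 2. Behind these values stood 304 and 255 counts for the truncated form and 28.8 and 24.1 for the full-length form.

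By counts alone, with no division by length, the full-length form held 8.66% of Ntrk2 counts in pup 1 (exact Clopper-Pearson 95% interval 5.91% to 12.3%) and 8.63% in pup 2 (5.59% to 12.5%). Each form has a long stretch the other lacks, 5109 bases in Ntrk2-202 and 7007 in Ntrk2-201 by the GENCODE M21 exons. The posterior SD was 4.91 counts in pup 1, which the intervals leave out. The tables, made on the older GENCODE M4, list 2 Ntrk2 transcripts where M21 lists 10, and the 2 differ in length between the releases. Any further forms were not estimated and their reads would be counted under these 2.

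Gfra1 encodes GFR alpha 1, the co-receptor for GDNF, on the minus strand of chromosome 19 from 58235604 to 58455909. It had 1.27 TPM in pup 1 and 2.43 TPM in pup 2 (1.85 ± 0.820 TPM, n = 2), which made it the gene with the widest relative gap in TPM among the 6 genes above 1 TPM. Its counts were nearly equal, at 160 and 166.5. The effective length that the estimator assigned to Gfra1 was 4195 nt in pup 1 and 2860 nt in pup 2, because more of the estimate in pup 2 went to short transcripts.

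The short partial Gfra1 transcripts, together with 1 transcript marked for decay, took 5.72% of the TPM of the gene in pup 1 and 39.3% in pup 2, on 1.60 and 13.8 counts. By posterior means these shares were 38.6% and 49.2%, a much smaller gap. The short Gfra1-202, of 349 nt, alone had 18.9% in pup 2 on 2.75 counts. The TPM of the 4 full-length coding transcripts was 1.20 in pup 1 and 1.47 in pup 2. Most of the gap in Gfra1 TPM between the pups therefore rested on a few counts. Among the full-length transcripts, Gfra1-203 led in both pups at 55.0% and 58.9%, whereas Gfra1-201 had 39.0% and 1.74%. By posterior means Gfra1-203 had 33.4% and 35.7% and Gfra1-201 had 16.6% and 5.72%. Gfra1-201 has 47 bases found in no other estimated transcript and Gfra1-203 has 0, so this division rested on little sequence. The antisense gene Gm16277 covers 416 exonic bases of Gfra1 and was at 0.19 and 0.33 TPM.

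Ret encodes the kinase through which GDNF family ligands signal, on the minus strand of chromosome 6 from 118151745 to 118197718. It had 0.25 TPM in pup 1 and 0.15 TPM in pup 2 (0.200 ± 0.0707 TPM, n = 2) on 51 and 23 counts. Both values were well above the limit that 3 counts allow, 0.0147 TPM and 0.0196 TPM, so Ret RNA was present at low level in both libraries. Among protein-coding genes 31.4% were lower.

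Ret also makes 2 forms with different tails, and at this depth their shares could not be fixed. Their coding sequences part after 3191 shared bases, and capitals mark the bases after that point.

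Ret-201: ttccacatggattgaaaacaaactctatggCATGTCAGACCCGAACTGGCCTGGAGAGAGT

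Ret-202: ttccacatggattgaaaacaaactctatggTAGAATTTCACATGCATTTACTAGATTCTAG

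The tail of Ret-201 lies in an exon from 118151745 to 118154010 on the minus strand and adds 157 coding bases, and that of Ret-202 lies in an exon from 118154566 to 118155435 and adds 31. Ret-201 had 14.6 of 51 counts in pup 1 and 14.1 of 23 in pup 2. Its share of Ret counts was 28.7% (exact Clopper-Pearson 95% interval 17.5% to 43.8%) and 61.5% (38.5% to 80.3%). These intervals treat the estimated counts as observed. They leave out the posterior SD of the Ret-201 count, 6.92 in pup 1 and 4.18 in pup 2. The order of the forms was opposite in the pups and the intervals overlapped. The tables give both Ret transcripts other lengths than GENCODE M21 does.

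Ranked by mean TPM, the order was Ntf3, Nrtn, Bdnf, Artn, Gfra1, Ntrk2, Ret and Gdnf. For 6 of the 7 neighbouring pairs the pup values did not overlap, though they came close for Ntf3 (lowest 12.9 TPM) and Nrtn (highest 12.3 TPM) and closer for Artn (lowest 2.47 TPM) and Gfra1 (highest 2.43 TPM). Gfra1 and Ntrk2 overlapped, since Gfra1 was below Ntrk2 in pup 1 and above it in pup 2. Ntrk2 had 8.13 times the mean TPM of Ret, and Ret 5 times that of Gdnf.

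Each ligand was set beside the Trk receptor or GFR alpha co-receptor it mainly binds. The ligand was higher for Bdnf, Ntf3 and Nrtn and lower for Artn and Gdnf. Bdnf TPM was 6.06 times that of all Ntrk2 in pup 1 and 3.33 times in pup 2. Against the full-length Ntrk2 form alone it was 87.6 and 46.1 times. Ntf3 had 16.1 and 21.8 times the TPM of Ntrk3, the gene of TrkC, which was at 0.80 and 0.66 TPM. Nrtn had 6.32 and 5.82 times the TPM of Gfra2, its usual co-receptor. Artn had 0.610 and 0.592 times the TPM of Gfra3. Against Ret, the kinase at 0.25 and 0.15 TPM, both Nrtn and Artn were higher in each pup and Gdnf was lower. Gdnf, at 0.06 and 0.02 TPM, was below Gfra1, at 1.27 and 2.43 TPM, in both pups.

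The rest of both families was detected at a share near that of all protein-coding genes, 58.5%. Of 9 further neurotrophin genes 6 (66.7%) reached 1 TPM in both pups, with a median of 2.57 TPM. Of 8 further GDNF family genes 5 (62.5%) did, with a median of 3.17 TPM. The median was 3.36 TPM over all protein-coding genes and 2.24 TPM over the 8 members. The ligand gene Ntf5, for neurotrophin-4, had 3.34 and 3.64 TPM. Bdnf and Ntf3 were both above it in each pup.

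Ngfr, for p75, was at 2.33 and 2.80 TPM. The sortilin Sort1 was at 8.19 and 6.64 TPM, Sorcs2 at 5.54 and 6.13 TPM and Sorcs1 at 1.64 and 1.07 TPM, and Sorcs3 had 1 count in each pup. Like Ntrk2, Ntrk3 has a truncated form without a kinase, and this took 35.7% and 19.4% of its TPM on 19.0 and 6.86 counts. Full-length Ntrk3 forms took 64.3% and 53.8%, or 60.1% and 50.5% by posterior means. The tables hold 6 of the 20 Ntrk3 transcripts of M21. The full-length share was thus above the truncated share for Ntrk3 in both pups and below it for Ntrk2, with few counts behind Ntrk3.

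Of the other co-receptors, Gfra4, for persephin, stood far above Gfra1, at 76.7 and 86.2 TPM on 2494 and 2239 counts. Gfra3 was at 4.54 and 4.17 TPM and Gfra2 at 1.95 and 2.00 TPM. Persephin itself, Pspn, had 3 and 8 counts. Gfral, the co-receptor of GDF15, had 0 counts in both pups, and its ligand Gdf15 had 2.48 and 0.69 TPM. Ncam1, an alternative receptor for GDNF, was at 48.8 and 39.5 TPM, 195 and 263 times the TPM of Ret. The GDNF-binding proteoglycan Sdc3 was at 52.6 and 47.9 TPM. The antisense gene Gm26716, at 22.0 and 21.3 TPM, covers 415 exonic bases of Sdc3, where their reads could not be separated.

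**Figure D2:**
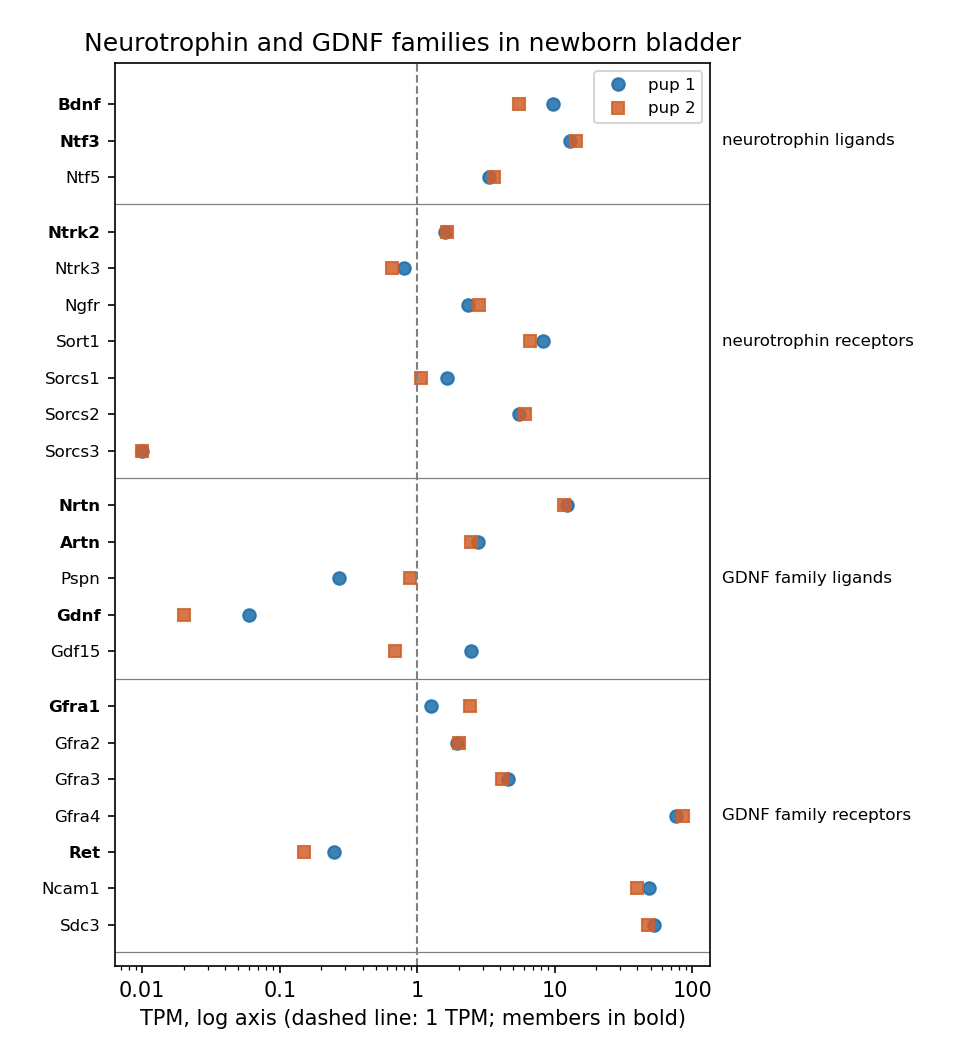
Level in TPM on a log axis of the neurotrophin and GDNF family genes named here, by role, with a circle for pup 1 and a square for pup 2 and the 8 members in bold. Nrtn, Ntf3 and Bdnf lead the ligands, Gfra4 leads the receptors at 76.7 and 86.2 TPM, and Ret lies below 1 TPM; Gfral, listed at 0 in both pups, is not drawn.

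Genes that process the precursors and pass on the signal were also described. Of 8 processing enzymes 4 were detected, a smaller share than the 58.5% of all protein-coding genes. The detected enzymes included the convertase Furin at 13.0 and 13.7 TPM and the plasminogen activator Plat at 24.1 and 26.7 TPM. Of 23 adaptors of Trk and Ret kinases and of p75, 20 (87.0%) were detected, and the median of the list was 12.7 TPM. It was led by Maged1 and Bex3, which bind p75, at means of 210 and 170 TPM. Of 8 feedback regulators and targets of the ERK pathway 7 (87.5%) were detected, led by Spry2 at a mean of 59.3 TPM. These serve many receptors besides TrkB and Ret. Of 13 other nerve-supporting factors and receptors 10 (76.9%) were detected.

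Markers of the cells that could carry these genes were checked. All 7 smooth muscle and all 6 urothelial markers were detected, summing to 59978 and 54989 TPM for smooth muscle and 7706 and 7213 TPM for urothelium. Of 24 autonomic neuron markers 11 (45.8%) were detected, against 58.5% of all protein-coding genes, and the list had a median of 0.67 TPM. It was led by Uchl1 at a mean of 211 TPM, Gata3 at 55.8 TPM, Hand2 at 14.6 TPM and Stmn2 at 8.30 TPM. The transmitter enzymes were low: Th had 0.31 and 0.62 TPM, and Chat had 0 and 1 counts. Of 9 Schwann cell markers 7 (77.8%) were detected, with Sox10 at 1.15 and 1.46 TPM. Their summed level was 33.2 TPM in pup 1 and 44.4 TPM in pup 2, and nearly all of that gap was in Fabp7, at 6.58 and 16.88 TPM. Of 7 sensory neuron markers only Calca was detected. Of 9 genes of kidney and its duct only Wnt11 reached 1 TPM, and Umod, Nphs1 and Pax2 had 0 counts in both pups. The part of each cell type in the levels above was not tested.

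Between the 2 littermates, Bdnf and Ret were lower in pup 2, Gfra1 and Ntf3 were higher, and Nrtn, Artn and Ntrk2 were close. Counts were scaled with TMM factors and expressed as the log2 ratio of pup 2 over pup 1. With 1 library per animal there is no test, and the 95% intervals are exact and cover counting error only. A gene was called 2-fold apart when its mean count was at least 20 and its scaled counts differed at least 2-fold. None of the 7 members with enough counts was 2-fold apart, against 3.72% of 15607 genes tested (2.84% higher and 0.871% lower in pup 2). For 4 of the 7 the counting interval excluded equal levels, against 47.3% of all genes tested, so this share was near the background.

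**Figure D3:**
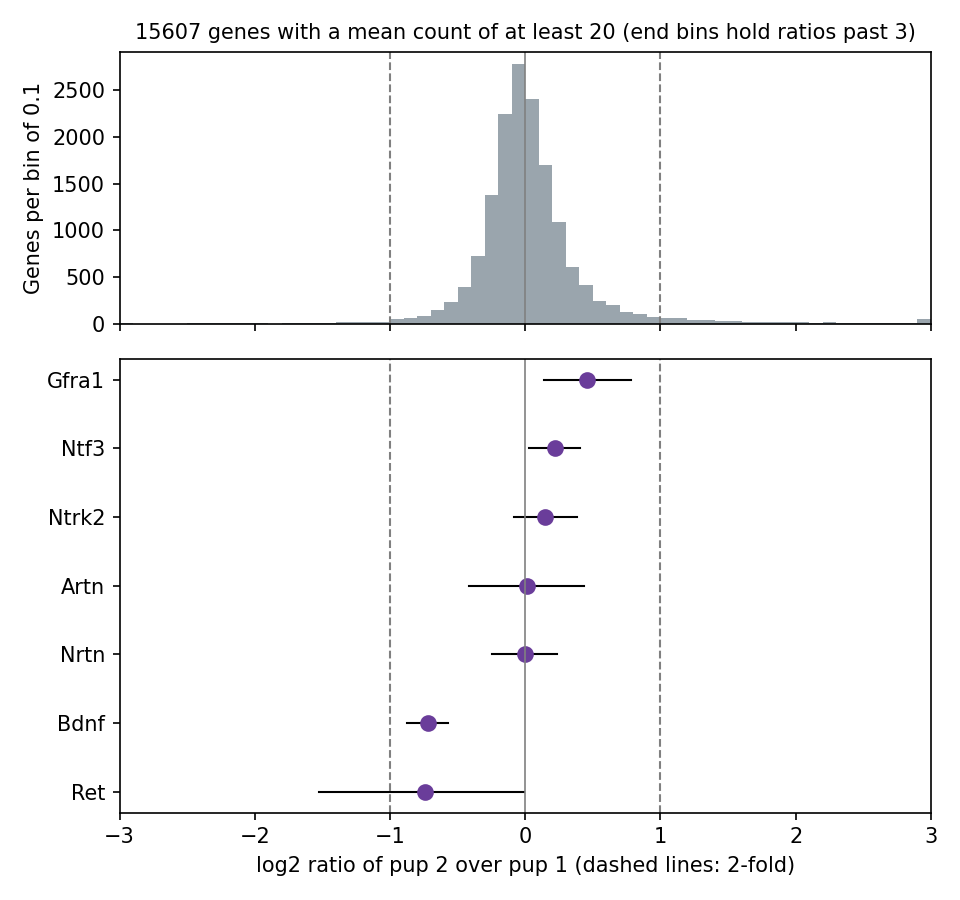
Upper panel, number of genes per bin of the log2 ratio of pup 2 over pup 1 for 15607 genes; lower panel, the ratio of each of 7 members as a point with its 95% counting interval as a line, and dashed lines at 2-fold. All 7 points lie between the dashed lines, Bdnf and Ret to the left near -0.72 and -0.74.

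Bdnf had a log2 ratio of -0.72 (interval -0.88 to -0.57), so it was 1.65-fold higher in pup 1. Only 1.92% of the genes tested had a lower ratio, and the lowest 2.5% of genes began at -0.65. Ret had -0.74 (-1.52 to -0.01) on far fewer counts. Gfra1 had 0.46 (0.14 to 0.78) by counts, a 1.37-fold difference, but 0.94 by TPM through the change in effective length described above. Ntf3 had 0.22 (0.03 to 0.40).

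For Ntrk2 the ratio was 0.15 (-0.09 to 0.38), for Artn 0.01 (-0.42 to 0.44) and for Nrtn 0.00 (-0.24 to 0.23). The median over the 7 was 0.01, beside -0.02 for all genes tested. Gdnf, with 6 and 2 counts, had a ratio of -1.18 with an interval from -4.52 to 1.30, which tells nothing of its direction. In the same libraries 6 macrophage markers summed to 464 TPM in pup 1 and 1660 TPM in pup 2, 5 erythroid genes to 21719 and 59101 TPM, and 5 liver-type genes to 70.2 and 18.7 TPM. Of 14 autonomic neuron markers with enough counts, 2 were 2-fold higher in pup 2 and 0 lower, against 2.84% and 0.871% of all genes tested. These were Npy at 2.86 and 5.64 TPM and Th at 0.31 and 0.62 TPM. Calca, the only sensory neuron marker with enough counts, was 2-fold higher at 2.86 and 6.67 TPM, and so was Fabp7 among 8 Schwann cell markers. The part of any of these cell types in the differences of Bdnf, Ret and Gfra1 was not tested.

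The shares of single transcripts differed in how far the pups were apart. The truncated form of Ntrk2 took 92.8% and 92.83%, whereas the leading Ret form changed and the share of Gfra1-201 was 39.0% in pup 1 and 1.74% in pup 2, or 16.6% and 5.72% by posterior means.

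**Figure D4:**
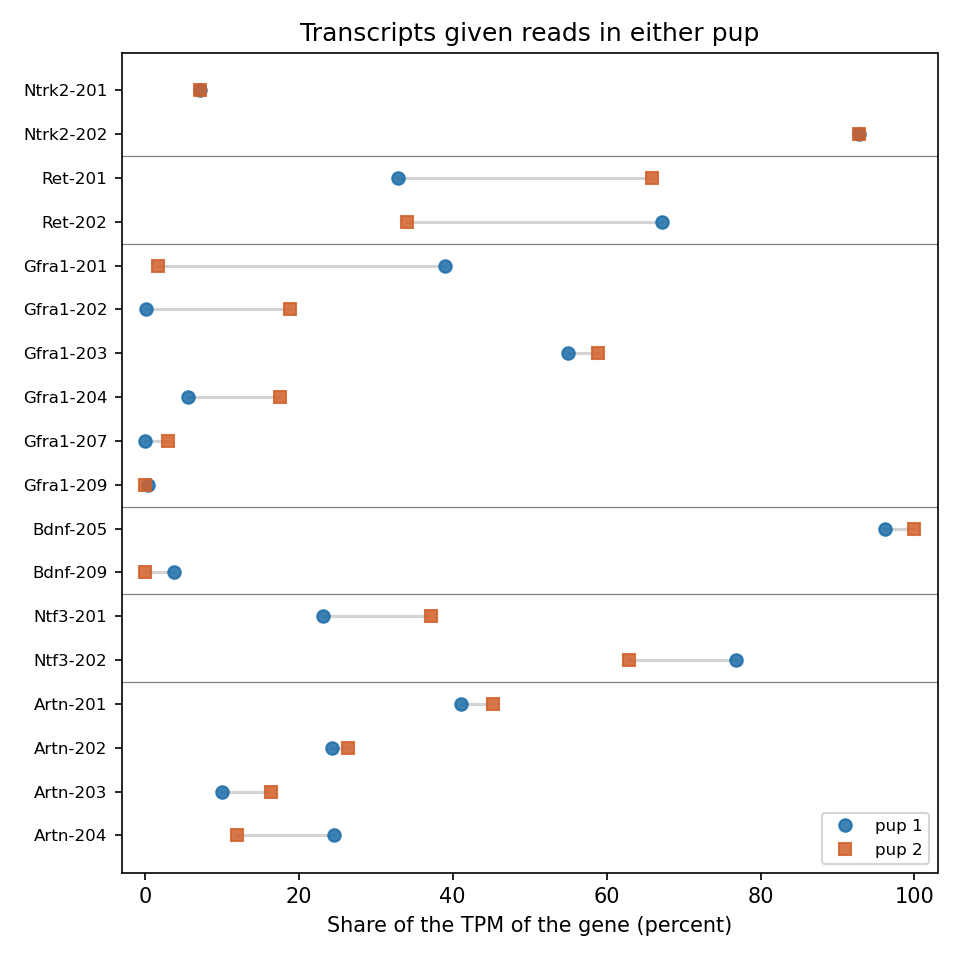
Share of the TPM of the gene taken by each transcript of 6 members that was assigned reads in either pup, with a circle for pup 1 and a square for pup 2 joined by a line. The Ntrk2 points of both pups lie on each other at 7.20% and 92.8%, and the Ret and Gfra1 points are far apart.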

How the data were processed

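Ambion mirVana was used for the extraction and spike-ins were added, per the labels' protocols, which also link the manual of a SMARTer Ultra Low RNA kit. The authors deposited 1 gene and 1 transcript table per library, on mm10 with GENCODE M4 per the submitters' file listing, in the layout of the RSEM estimator. For aligner, versions and strand setting the entry is: not given in the sources used here. Expected counts, as deposited, are estimates with shared reads divided among transcripts, so isoform shares are estimates. Deposited TPM and FPKM are per effective length, and TPM sums to a fixed total over every entry. Deposited percent values give the share of each transcript in the TPM of its gene. The deposited files also hold posterior means and SDs.

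The libraries held 43653931 (pup 1) and 32564563 (pup 2) expected counts. Entries other than mouse genes held under 0.001% of counts and stayed out of the scaling. Of 43346 mouse genes, 42462 matched GENCODE M21 by identifier, all 8 members among them. Rounded expected counts were scaled with TMM (edgeR 4.0.16, R 4.3.3), with a count of 0 set to 3. Other steps used Python 3.11.15 with pandas 2.3.3 and scipy 1.17.1, and the ratio step was tested on simulated counts. A full-length transcript ends at the stop codon of the longest coding sequence of the gene. Alternatives were another detection threshold, FPKM, posterior means, other scalings (DESeq2 1.42.0 size factors, total count, spike-ins), other count minimums and each pup left out. The members and lists were chosen with earlier results of these data known. The rule for named genes takes all members, both families in full and the highest, absent or 2-fold different genes of the other lists, of which only examples are printed, and some genes of these lists are not reported here. Chat and Sox10 were named outside it as defining markers. Protein sequences were not used here.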

Additional observations from a re-analysis of the deposited data

How the results depend on the processing

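The number of genes at 1 TPM in both pups was 6 and ranged from 4 (at 2 TPM) to 7 (at 10 counts in both pups) over the alternatives, with 5 by FPKM. The order of the 8 levels held by FPKM, by posterior means and in pup 2 alone, and in pup 1 alone Gfra1 and Ntrk2 changed places. The truncated share of Ntrk2 was 92.3% by posterior means and 91.4% by counts. With no minimum count 1 gene, Gdnf, was 2-fold apart. The Bdnf ratio ranged from -0.73 to -0.70 over all scalings and the Gfra1 ratio from 0.45 to 0.60, whereas Nrtn and Artn changed sign around 0 and Ret moved to -0.12 with 1 added to TPM. By posterior means, mean Gfra1 was 2.56 TPM and mean Artn 2.90 TPM. Over all genes, 444 were 2-fold higher and 136 lower in pup 2, and with 1 added to TPM 216 and 59 were. Counts limit Gdnf, Ret and the single forms of Gfra1 and Ret. No paired analysis was possible because there is only 1 group.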
